A study of Mus musculus with 65 samples.

Results

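Metallothioneins and zinc or manganese transporters were followed through primary neural stem cell (NSC) cultures as they left growth factor medium, in cells from old and young mice. The 8 genes are those of the deposited count table whose Ensembl identifiers carry the symbols Mt1, Mt2, Mt3, Mtf1, Slc30a1, Slc30a10, Slc39a8 and Slc39a14 in the mouse GENCODE annotation, out of 31057 features, and all 8 were found. Cells came from the adult subventricular zone of mice of the iOSKM genotype, which all 65 libraries share: doxycycline induces Oct4, Sox2, Klf4 and Myc. Old mice (4 animals, 2 males and 2 females) were 25 months old and young mice (5 animals, 2 males and 3 females) were 3 to 4 months old. Each animal gave 1 library per group, so a replicate is an animal.

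The cultures were grown on poly-D-lysine and laminin in NSC medium, which is Neurobasal-A with B27, EGF and bFGF. For differentiation they were given medium without EGF and bFGF, 18 h after plating. Doxycycline was used at 2 µg per ml. Doxycycline-treated old cultures were sampled at 6, 18 and 48 h in NSC medium and at 6, 18 and 48 h of differentiation. Doxycycline-treated young cultures were sampled at 18 h in NSC medium only. Untreated old and untreated young cultures were each sampled at 18 h in NSC medium and at 6, 18 and 48 h of differentiation. No untreated group was sampled in NSC medium at 6 or 48 h, and the labels do not state from what event the hours in NSC medium are counted. The labels name no promoter or cell type for the cassette.

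Metallothioneins are small cysteine-rich proteins that bind zinc and copper in the cytosol. In the brain Mt1 and Mt2 are known mainly from astrocytes, and Mt3, also called growth inhibitory factor, is known from neurons and astrocytes. When free zinc rises, the zinc-finger factor MTF1 binds metal response elements in the promoters of Mt1, Mt2 and Slc30a1 and raises their transcription. SLC30 proteins carry metal out of the cytosol and SLC39 proteins carry it in: SLC30A1 exports zinc across the plasma membrane, SLC30A10 exports manganese, and SLC39A8 and SLC39A14 import zinc, manganese and iron.

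Libraries held 56.5 to 116.8 M counts (median 86.7 M). Levels are CPM (counts of a gene per M counts of its library) scaled by edgeR's TMM method. Levels of different genes are compared as CPM per kilobase of the table's gene length, unless stated otherwise. Summed over 8 markers each, the NSC list averaged 5699 CPM in untreated old and 5976 CPM in untreated young cultures in NSC medium, and each of its 8 genes averaged above 1 CPM in every group. The astrocyte list averaged 2171 CPM in NSC medium, 3287 at 6 h, 6506 at 18 h and 9794 at 48 h of differentiation in untreated old cultures, and 2324, 3621, 6991 and 10950 CPM in untreated young cultures. Group averages of the other lists were 614 to 1833 CPM for neuroblasts and neurons, 1385 to 6799 for the oligodendrocyte lineage, 29.1 to 61.8 for microglia, 8.38 to 18.9 for endothelial cells, 29.1 to 76.0 for ependymal cells and 77.9 to 283 for mural cells and fibroblasts, whose gene Cspg4 the oligodendrocyte list shares. Defining genes of those last 4 were near 0: the highest group mean was 0.0206 CPM for microglial Cx3cr1, 0.0405 for endothelial Cldn5, 0.00597 for ependymal Pifo and 0.0237 for fibroblast Dcn. Pou5f1, the Oct4 gene, averaged 0.404 CPM with and 0.161 CPM without doxycycline in old NSC-medium cultures at 18 h, and 0.791 and 0.207 CPM in young cultures. At 6, 18 and 48 h of differentiation in old cultures it averaged 0.325, 0.269 and 0.333 CPM with doxycycline. Without doxycycline the averages there were 0.0619, 0.124 and 0.184 CPM. Every group mean of Pou5f1 was under 1 CPM.

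The 3 metallothionein genes lie together on the plus strand of chromosome 8 (GRCm38/mm10), Mt3 at chr8:94152607-94154146, Mt2 at chr8:94172664-94173568 and Mt1 at chr8:94179082-94180327, with 18517 bases between Mt3 and Mt2 and 5513 between Mt2 and Mt1. Mtf1 lies at chr4:124802104-124849800 (+), Slc30a1 at chr1:191906767-191913247 (+), Slc30a10 at chr1:185454848-185468762 (+), Slc39a8 at chr3:135825279-135888572 (+) and Slc39a14 at chr14:70303469-70351425 (-). All 8 are annotated as protein coding. Per kilobase, the metallothioneins were the most abundant at every group mean, at 48.02 to 1532 CPM per kb. Slc30a1 ranged from 5.92 to 9.97, Mtf1 from 5.76 to 6.28 and Slc39a14 from 1.79 to 3.05 CPM per kb. Slc30a10 covered the widest range, 0.00857 to 3.67, and Slc39a8 stayed at 0.0389 to 0.162 CPM per kb.

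Some counts may be shared with overlapping genes. Gm45774, annotated on the opposite strand across Mt2, had 86.8 to 92.4% of Mt2's count in every library (median 90.0%). 1110065P20Rik had 60.3 to 78.6% of Mtf1's count and 1700034H15Rik 5.03 to 11.1% of Slc30a1's. Gm2061, which overlaps Slc30a10, had 0 to 200% of its count (median 25.7%) and at most 715 counts. The library kit is stranded, but the strand setting of the counting is not given in the sources used here, so reads of such pairs cannot be told apart. No 2 of the 8 genes share a stretch of 75 bases.

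Promoter windows are shown for the metallothioneins and Slc30a10, the genes with the largest changes below. Each is the 250 bases before the start that RefSeq gives (GRCm38.p6), written 5′ to 3′ on the gene's strand, all from the plus strand. Capitals mark the core of the metal response element, TGCACNC or TGCGCNC, on either strand.
Mt1, chr8:94178839-94179088: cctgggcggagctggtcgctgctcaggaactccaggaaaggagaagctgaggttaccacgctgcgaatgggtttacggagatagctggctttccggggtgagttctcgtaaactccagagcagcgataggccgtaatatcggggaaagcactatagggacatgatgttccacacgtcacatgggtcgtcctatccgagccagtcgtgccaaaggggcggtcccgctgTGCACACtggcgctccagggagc
Mt2, chr8:94172368-94172617: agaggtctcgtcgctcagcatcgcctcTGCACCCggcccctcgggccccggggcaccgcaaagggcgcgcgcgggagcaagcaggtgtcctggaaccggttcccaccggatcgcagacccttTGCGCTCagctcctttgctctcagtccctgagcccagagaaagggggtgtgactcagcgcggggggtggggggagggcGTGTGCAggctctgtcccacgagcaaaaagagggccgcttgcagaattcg
Mt3, chr8:94152357-94152606: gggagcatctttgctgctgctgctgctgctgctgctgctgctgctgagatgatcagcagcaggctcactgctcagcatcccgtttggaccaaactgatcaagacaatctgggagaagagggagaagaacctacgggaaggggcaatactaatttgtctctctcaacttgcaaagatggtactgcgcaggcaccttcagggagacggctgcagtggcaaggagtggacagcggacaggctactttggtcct
Slc30a10, chr1:185454598-185454847: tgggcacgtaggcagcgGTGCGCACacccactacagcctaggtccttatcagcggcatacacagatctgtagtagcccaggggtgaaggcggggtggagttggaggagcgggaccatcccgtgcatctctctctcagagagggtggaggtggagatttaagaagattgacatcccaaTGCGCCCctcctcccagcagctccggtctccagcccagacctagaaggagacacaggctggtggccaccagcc
Mt2 and Slc30a10 each had 3 matches, in Slc30a10 with 2 of them overlapping on opposite strands, Mt1 and Slc30a1 had 1, and Mt3 and Mtf1 had none. Slc39a8 has 2 annotated windows, with 0 and 1 matches, and Slc39a14 was not matched to a window. Of 32851 promoter windows of this length, 21.4% held at least 1 match and 1.26% at least 3. Other GENCODE transcripts start downstream of the RefSeq start, by 122 and 152 bases for Mt1, 46 and 242 for Mt2 and 139 for Mt3, so the bases just before those starts are not shown and not in these match counts. A match is a description of the sequence, not of binding.

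All 3 metallothioneins rose between 6 and 18 h and again between 18 and 48 h of differentiation in untreated cultures of both ages, and Mt2 rose most. Mt2 had 34.3, 25.6, 38.1 and 28.4 CPM in the 4 untreated old cultures in NSC medium, 68.6, 52.5, 56.6 and 63.9 at 6 h of differentiation, 324, 256, 269 and 308 at 18 h, and 838, 754.5, 751 and 845 at 48 h. In the 5 untreated young cultures it had 23.1, 20.63, 22.1, 32.7 and 43.8 CPM in NSC medium, 61.7, 61.3, 48.9, 85.3 and 86.3 at 6 h, 335, 296.5, 235, 299.5 and 299.6 at 18 h, and 959.9, 874, 827, 1024 and 818 at 48 h. At each age no library of a later stage overlapped a library of an earlier stage.

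Mt2 was 0.94 (SE 0.14) higher on the log2 scale at 6 h of differentiation than in NSC medium in old cultures and 1.28 (SE 0.24) higher in young cultures, with adjusted p of 3.1e-04 and 8.2e-04. From there the steps were larger: 2.27 (SE 0.11) in old and 2.10 (SE 0.16) in young cultures at 18 h against 6 h, and 1.44 (SE 0.08) and 1.60 (SE 0.09) at 48 h against 18 h. Adjusted p of these 4 steps ran between 2.8e-08 and 1.5e-06. These and all adjusted p below come from edgeR's quasi-likelihood test with Benjamini-Hochberg adjustment over all genes tested, and a gene is called at an adjusted p under 0.05. Consecutive steps share the libraries of the stage between them. In bulk RNA, fewer cells of a type and less RNA per cell cannot be told apart, and the summed astrocyte markers were higher at each later stage. Of 8 astrocyte markers 8, 7 and 6 were called higher and 0, 1 and 2 lower in the 3 steps in old cultures, and 7, 7 and 6 higher and 0, 1 and 2 lower in young cultures. Oligodendrocyte lineage markers summed to 2682, 3352, 3679 and 5809 CPM at the 4 stages in old and to 2623, 3689, 3505 and 4343 CPM in young cultures, with 7, 5 and 4 of 8 called higher and 1, 3 and 4 lower in old cultures and 7, 4 and 4 higher and 0, 3 and 3 lower in young cultures. Neuroblast and neuron markers summed to 1032, 1242, 1833 and 1385 CPM in old and to 1025, 1190, 1734 and 1403 CPM in young cultures. Of these 8 markers 4, 6 and 2 were called higher and 2, 2 and 5 lower in the 3 steps in old cultures. In young cultures 5, 6 and 3 were called higher and 1, 1 and 5 lower. The part of these lists in the metallothionein values was not tested.

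Mt1, the neighbouring gene, rose by smaller steps. It had 127, 139, 145 and 122.5 CPM in old cultures in NSC medium, 166, 150.1, 150.5 and 159 at 6 h of differentiation, 529, 432, 441 and 527 at 18 h, and 1085, 959.8, 1069 and 1105 at 48 h. Young cultures had 111, 112, 102, 151 and 165.5 CPM in NSC medium, 149, 167, 144, 207 and 201 at 6 h, 612, 545.5, 433, 548 and 542 at 18 h, and 1344, 1223, 1037, 1473 and 1118 at 48 h. The old groups of consecutive stages did not overlap, while in young cultures NSC medium and 6 h did.

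At 6 h against NSC medium the Mt1 change was small, 0.24 (SE 0.06, adjusted p = 0.0023) in old cultures and 0.45 (SE 0.16, adjusted p = 0.022) in young cultures. The call in old cultures was lost when all 65 libraries were fitted together (adjusted p = 0.115). The call in young cultures was lost without replicate 2 (adjusted p = 0.075) and without the filter on low counts (adjusted p = 0.0654). Later steps were 1.64 (SE 0.07) in old and 1.64 (SE 0.12) in young cultures at 18 h against 6 h, then 1.11 (SE 0.07) and 1.19 (SE 0.10) at 48 h against 18 h, with adjusted p between 6.2e-09 and 1.6e-06.

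Mt3 had 139, 131, 141 and 115 CPM in old cultures in NSC medium, 154.5, 128, 140.3 and 131 at 6 h of differentiation, 354, 287, 299 and 323 at 18 h, and 811, 749.8, 764 and 733 at 48 h. In young cultures it had 127, 127, 121, 121 and 163 CPM in NSC medium, 170.5, 149.6, 153, 131.5 and 185 at 6 h, 413, 354, 368, 329 and 344 at 18 h, and 971, 890.5, 919, 895.5 and 824 at 48 h. NSC medium and 6 h overlapped at both ages, and the later stages stood apart from each other and from those.

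The Mt3 step at 6 h did not pass the test in old cultures (0.08, SE 0.08, adjusted p = 0.351). In young cultures it was called (0.27, SE 0.10, adjusted p = 0.029), but not without replicate 1 (adjusted p = 0.114), 2 (0.0705) or 3 (0.12), nor without the filter on low counts (0.078). Mt3 rose at 18 h against 6 h by 1.20 (SE 0.08) in old and by 1.21 (SE 0.09) in young cultures, and at 48 h against 18 h by 1.26 (SE 0.06) and by 1.29 (SE 0.06). Adjusted p for these 4 steps lay between 3.1e-09 and 2.5e-07.

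**Figure D1:**
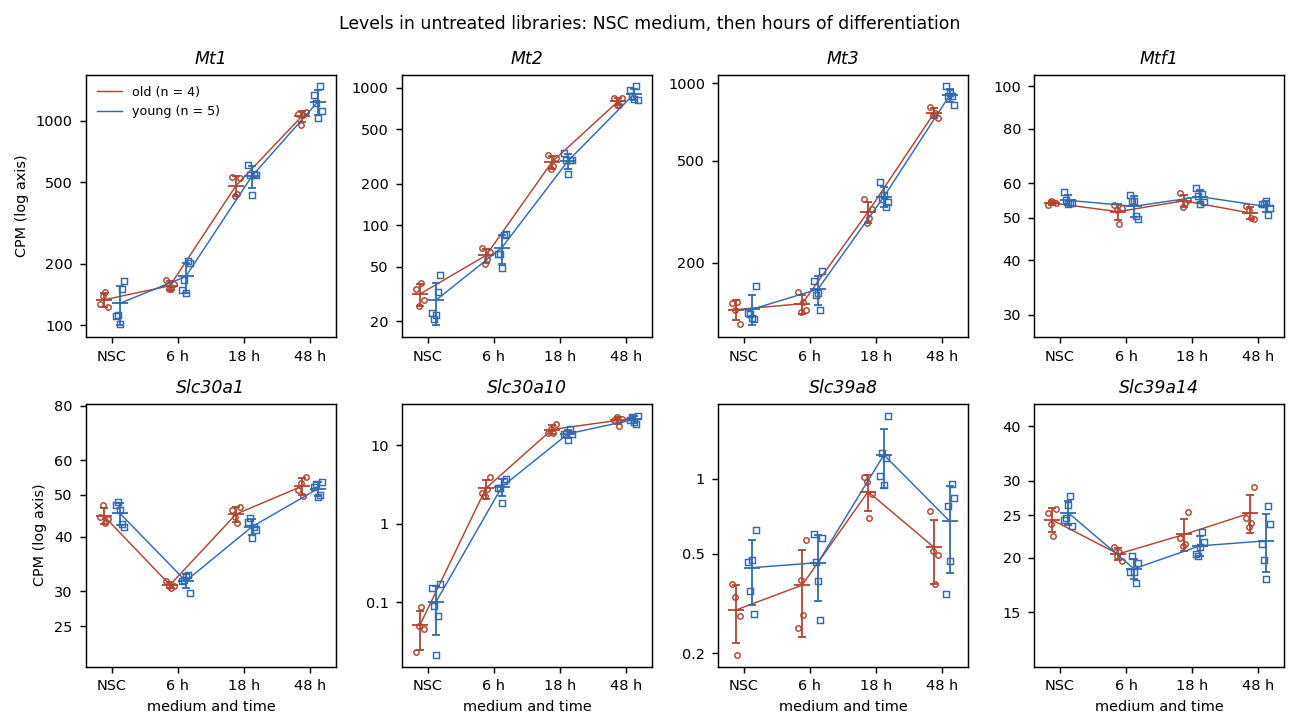
Level of each of the 8 genes (CPM, log axis) in untreated old (red circles, n = 4) and untreated young cultures (blue squares, n = 5), in NSC medium at 18 h and at 6, 18 and 48 h of differentiation; points are libraries and bars the mean ± SD, with the lower bar clipped where it would come near 0. Mt1, Mt2, Mt3 and Slc30a10 climb after 6 h at both ages, with Slc30a10 starting from means of 0.0516 and 0.101 CPM, and Mtf1 stays level.

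Over all 15 groups, Mt2 fell into 4 levels whose libraries did not overlap: NSC medium at 18 and 48 h (20.63 to 43.8 CPM), every 6 h group in either medium (46.8 to 86.3), 18 h of differentiation (235 to 335) and 48 h of differentiation (639 to 1024). Mt1 fell into 3, with NSC medium and 6 h of differentiation together (97.5 to 209 CPM), then 18 h (431 to 612) and 48 h of differentiation (870.2 to 1473). Within each of these levels of Mt1 and Mt2, groups next to each other in the order of their means overlapped. Mt3 was lowest in doxycycline-treated old cultures at 6 h in NSC medium (64.2 to 79.5 CPM), lay between 90.3 and 216 CPM in the other NSC-medium groups and at 6 h of differentiation, and reached 287 to 413 CPM at 18 h and 661 to 971 CPM at 48 h of differentiation.

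The balance among the 3 changed with stage. Per kilobase, the ratio of Mt2 to Mt1 averaged 0.503 ± 0.083 in NSC medium, 0.816 ± 0.060 at 6 h, 1.27 ± 0.03 at 18 h and 1.60 ± 0.08 at 48 h of differentiation in untreated old cultures (SD, n = 4). It averaged 0.462 ± 0.062, 0.832 ± 0.081, 1.16 ± 0.01 and 1.55 ± 0.08 at the same stages in untreated young cultures (SD, n = 5). By the gene lengths used, Mt2 passed Mt1 between 6 and 18 h. In CPM without length, Mt2 to Mt1 averaged 0.2372, 0.3852, 0.5996 and 0.7562 at the same stages in untreated old cultures. In untreated young cultures it averaged 0.218, 0.3925, 0.5468 and 0.7306, so Mt2 stayed below Mt1 at both ages. The crossing thus rests on the lengths, 1246 bases for Mt1 and 588 for Mt2. The length of Mt1 equals its whole annotated span, and that of Mt2 does not. Per kilobase, the ratio of Mt3 to Mt1 went the other way at first. It averaged 1.15, 1.04, 0.766 and 0.849 in old and 1.23, 1.09, 0.797 and 0.861 in young cultures. These ratios are a description, and reads shared with Gm45774 may enter those of Mt2.

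**Figure D2:**
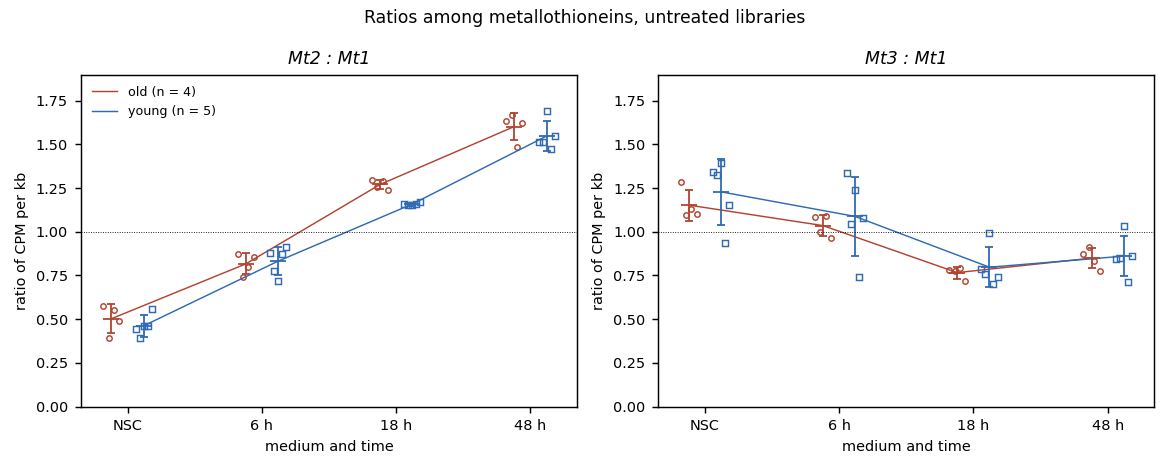
Ratio of Mt2 to Mt1 and of Mt3 to Mt1 (CPM per kb over CPM per kb) in untreated old (red circles, n = 4) and young cultures (blue squares, n = 5) by stage; points are libraries and bars the mean ± SD. Mt2 to Mt1 averages 0.503 and 0.462 in NSC medium and 1.60 and 1.55 at 48 h, while Mt3 to Mt1 is lowest at 18 h. In CPM without length, not drawn, Mt2 to Mt1 averages 0.7562 in old and 0.7306 in young cultures at 48 h.

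Mtf1, the zinc-sensing transcription factor, kept nearly the same level while the metallothioneins rose, although reads shared with the overlapping 1110065P20Rik may enter its values. Group means of Mtf1 lay between 51.3 and 55.9 CPM in all 15 groups, and single libraries ranged from 48.5 to 58.5 CPM. It did not pass the test at 6 h against NSC medium at either age (-0.06, SE 0.04, in old and -0.03, SE 0.04, in young cultures). It was called lower at 48 h than at 18 h, by 0.11 (SE 0.04, adjusted p = 0.014) in old cultures and by 0.10 (SE 0.03, adjusted p = 0.017) in young cultures. The old call was lost without replicate 3 (adjusted p = 0.0782) or 4 (0.0848), and the young call without replicate 1 (0.13), 2 (0.054) or 4 (0.096) and on the variance-stabilised values (0.0982). With the animals as blocks, Mtf1 was also called higher at 18 h than at 6 h in old cultures (0.09, SE 0.04, adjusted p = 0.0306, against 0.058 without blocks), as on the variance-stabilised values (0.0231). With all 65 libraries in 1 fit it was called at that step at both ages (0.0266 in old and 0.0259 in young cultures).

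Slc30a10, the manganese exporter, was barely detected in NSC medium at 18 h and was measured at every time of differentiation. It had 0.0236, 0.0497, 0.0879 and 0.0452 CPM in untreated old cultures in NSC medium, 2.45, 2.24, 2.77 and 3.95 at 6 h of differentiation, 14.4, 16.2, 14.6 and 18.8 at 18 h, and 21.2, 23.4, 17.7 and 21.5 at 48 h. In untreated young cultures it had 0.154, 0.0888, 0.0216, 0.0661 and 0.173 CPM in NSC medium, 2.88, 2.85, 1.86, 3.48 and 3.75 at 6 h, 14.1, 13.9, 11.8, 16.4 and 14.01 at 18 h, and 21.3, 22.9, 20.2, 18.8 and 24.0 at 48 h. The NSC-medium values rest on 2 to 8 counts per old library and 2 to 18 per young library.

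Slc30a10 was higher by 5.75 (SE 0.31, adjusted p = 7.8e-09) on the log2 scale at 6 h of differentiation than in NSC medium in old cultures and by 4.86 (SE 0.33, adjusted p = 2.1e-08) in young cultures. The next change, at 18 h against 6 h, was 2.49 (SE 0.17) in old and 2.26 (SE 0.15) in young cultures, with adjusted p of 7.2e-07 and 4.1e-08. The last step was 0.37 (SE 0.10, adjusted p = 0.009) in old cultures, where 18 and 48 h overlapped, and 0.59 (SE 0.08, adjusted p = 3.1e-05) in young cultures, where they did not. In old cultures it was no longer called without replicate 1 (adjusted p = 0.06) or 2 (0.0576), or with all 65 libraries in 1 fit (0.0504).

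Slc30a1, the plasma membrane zinc exporter, dipped at 6 h and then recovered. It had 44.5, 47.2, 43.0 and 43.9 CPM in untreated old cultures in NSC medium, 31.8, 30.9, 30.6 and 30.9 at 6 h of differentiation, 46.1, 44.4, 43.0 and 46.9 at 18 h, and 51.3, 53.1, 49.7 and 54.9 at 48 h. Untreated young cultures had 47.4, 48.01, 46.1, 42.8 and 42.2 CPM in NSC medium, 31.7, 31.9, 32.6, 32.7 and 29.7 at 6 h, 43.3, 44.3, 39.8, 42.1 and 41.4 at 18 h, and 52.1, 53.0, 49.3, 50.02 and 53.4 at 48 h. The 6 h libraries lay below all others of the same age. Slc30a1 fell by 0.52 (SE 0.04) in old and by 0.50 (SE 0.05) in young cultures at 6 h against NSC medium, with adjusted p of 1.4e-07 and 3.8e-07. It rose by 0.55 (SE 0.04) and 0.42 (SE 0.04) at 18 h, and by 0.19 (SE 0.04) and 0.27 (SE 0.03) at 48 h against 18 h, with adjusted p between 3.9e-08 and 0.0013. At 18 h of differentiation it did not pass the test against NSC medium at either age (0.05, SE 0.04, in old and -0.06, SE 0.04, in young cultures), and passed only in young cultures with all 65 libraries in 1 fit (-0.10, adjusted p = 0.013).

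Slc39a14, an importer of zinc, manganese and iron, also fell at 6 h. It averaged 24.4 ± 1.5 CPM in NSC medium, 20.4 ± 0.6 at 6 h, 22.6 ± 1.9 at 18 h and 25.3 ± 2.5 at 48 h of differentiation in untreated old cultures (SD, n = 4), and 25.4 ± 1.7, 18.9 ± 1.0, 21.3 ± 1.1 and 21.9 ± 3.3 in untreated young cultures (SD, n = 5). Old libraries at 6 h ranged from 19.6 to 21.2 CPM and young ones from 17.5 to 20.2, below every NSC-medium library of their age (22.5 and 23.6 CPM or more). The fall was 0.25 (SE 0.06, adjusted p = 0.0015) in old and 0.41 (SE 0.06, adjusted p = 1.4e-05) in young cultures. The rise at 18 h, 0.16 (SE 0.06, adjusted p = 0.035) and 0.18 (SE 0.05, adjusted p = 0.0087), was lost without replicate 4 at both ages (0.08 with adjusted p = 0.208 in old and 0.13 with 0.0582 in young cultures), and in old cultures also with all 65 libraries in 1 fit (0.103). At 48 h against 18 h it passed only in old cultures with animals as blocks (0.14, SE 0.04, adjusted p = 0.0111, against 0.129 without blocks) and without replicate 4 (0.0479).

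Slc39a8, the related importer, was scarce, with 18 to 127 counts per library, and was highest at 18 h. It averaged 0.298 ± 0.077, 0.375 ± 0.142, 0.886 ± 0.143 and 0.531 ± 0.151 CPM at the 4 stages in untreated old cultures (SD, n = 4), and 0.440 ± 0.128, 0.461 ± 0.136, 1.24 ± 0.33 and 0.674 ± 0.256 CPM in untreated young cultures (SD, n = 5). All 18 h libraries lay above all 6 h and NSC-medium libraries of their age. It rose by 1.25 (SE 0.27, adjusted p = 9.7e-04) in old and 1.44 (SE 0.23, adjusted p = 7.2e-05) in young cultures at 18 h against 6 h. At 48 h against 18 h it fell by 0.76 (SE 0.23, adjusted p = 0.013) in old cultures and by 0.91 (SE 0.27, adjusted p = 0.0098) in young cultures, where the groups overlapped at both ages and the old call was lost without replicate 2 (adjusted p = 0.0646).

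Counted over the 8 genes, 3 were higher and 2 lower at 6 h of differentiation than in NSC medium in old cultures, where 75.5% of all genes tested were called, and 4 were higher and 2 lower in young cultures (74.9% of all genes). In the next step, 18 h against 6 h, 7 were higher and none lower at both ages, against 67.7% of all genes called in old and 66.5% in young cultures. With animals as blocks Mtf1 joined them in old cultures (71.9% of all genes). In the last step, 48 h against 18 h, 5 were higher and 2 lower at both ages (56.5% of all genes in old, 59.2% with blocks, and 56.9% in young cultures). Between the 18 h groups, differentiation against NSC medium, 5 were higher and none lower in old cultures (82% of all genes) and 5 were higher and Slc39a14 lower in young cultures (82.6%). There Slc30a10 differed by 8.25 (SE 0.19) in old and 7.14 (SE 0.23) in young cultures and Mt2 by 3.23 (SE 0.15) and 3.40 (SE 0.23). With most of the transcriptome called in each comparison, the counts alone do not set these genes apart, and the sizes above carry the description.

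Doxycycline-treated old cultures allowed the 2 media to be compared at matched labelled times. At 6 h Mt3 alone of the metallothioneins passed the test without blocks, while at 18 and 48 h all 3 were far higher in differentiation medium. Mt2 had 63.4, 49.96, 56.1 and 67.9 CPM at 6 h of differentiation against 62.4, 46.8, 55.0 and 53.2 in NSC medium, and the groups overlapped. At 18 h it had 324, 294, 264 and 265 CPM against 34.0, 22.4, 28.7 and 27.9, and at 48 h 685.5, 771, 639 and 652 CPM against 33.3, 31.0, 33.4 and 38.6. The log2 differences were 0.15 (SE 0.12, adjusted p = 0.265), 3.38 (SE 0.14, adjusted p = 5.3e-08) and 4.36 (SE 0.08, adjusted p = 5.4e-13). With animals as blocks the 6 h difference was called (0.15, SE 0.06, adjusted p = 0.0398).

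Mt1 averaged 142 ± 16, 485 ± 54 and 948 ± 82 CPM at 6, 18 and 48 h of differentiation in these cultures, against 132 ± 2, 115 ± 11 and 189 ± 17 CPM in NSC medium (SD, n = 4 each). The difference at 6 h was 0.13 (SE 0.07, adjusted p = 0.102, and 0.039 without replicate 3), and those at 18 and 48 h were 2.12 (SE 0.09) and 2.36 (SE 0.07). Mt3 averaged 137 ± 6, 349 ± 36 and 717 ± 70 CPM against 70.4 ± 6.7, 106 ± 14 and 198 ± 15 CPM. It was higher by 0.98 (SE 0.07) at 6 h, 1.76 (SE 0.11) at 18 h and 1.88 (SE 0.07) at 48 h. Adjusted p of these 5 differences lay between 2.5e-11 and 3.1e-07. The 6 h difference of Mt3 was taken against its lowest group. In untreated old cultures Mt3 averaged 131.5 CPM at 18 h in NSC medium and 138.6 at 6 h of differentiation. Equal labels need not be equal times in culture, as the start of the hours in NSC medium is not stated. The ratio of Mt2 to Mt1 per kilobase was 0.883, 1.25 and 1.53 in differentiation medium against 0.874, 0.523 and 0.384 in NSC medium.

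Slc30a10 in differentiation medium had 2.35, 2.42, 1.99 and 2.23 CPM at 6 h, 11.3, 13.9, 12.4 and 15.5 at 18 h, and 17.9, 19.7, 15.9 and 21.8 at 48 h. In NSC medium it had 0.0845, 0.0843, 0.111 and 0.0232 CPM at 6 h, 0.0514, 0.0227, 0.0236 and 0.189 at 18 h, and 0.375, 0.682, 0.452 and 0.650 at 48 h. The media did not overlap at any time. The differences were 4.89 (SE 0.27), 7.48 (SE 0.33) and 5.15 (SE 0.17), with adjusted p between 2.5e-10 and 1.2e-08. Slc30a1 was 0.34 lower (SE 0.04, adjusted p = 1.4e-05) at 6 h, did not pass the test at 18 h, and was 0.26 higher (SE 0.04, adjusted p = 3.2e-05) at 48 h of differentiation. Slc39a14 was lower by 0.70 (SE 0.06, adjusted p = 2.8e-07) at 6 h and by 0.20 (SE 0.07, adjusted p = 0.012) at 18 h, and did not pass at 48 h. The call at 18 h was lost without replicate 1 (-0.13, adjusted p = 0.0754). In NSC medium Slc39a14 averaged 32.2 CPM at 6 h, 25.1 at 18 h and 24.8 at 48 h. Slc39a8 was higher by 1.37 (SE 0.26, adjusted p = 2.2e-04) at 18 h and lower by 0.80 (SE 0.25, adjusted p = 0.012) at 48 h, where the call was lost without replicate 3 (adjusted p = 0.0572). The summed astrocyte markers averaged 3183, 6098 and 8717 CPM at the 3 times of differentiation, against 1243, 1987 and 2545 CPM in NSC medium. Oligodendrocyte lineage markers averaged 3615, 4110 and 6799 CPM against 1385, 2642 and 2609 CPM, with 8, 7 and 5 of 8 called higher and 0, 1 and 3 lower. Neuroblast and neuron markers averaged 1218, 1774 and 1432 CPM against 614, 1005 and 960 CPM, with 4, 7 and 6 of 8 called higher and 2, 1 and 2 lower. The part of these lists in the differences between media was not tested.

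In all, 4 of the 8 genes were called at 6 h (2 higher and 2 lower, with 80.7% of all genes called, and 5 with blocks at 81%), 6 at 18 h (5 higher and 1 lower, 81.5% of all genes) and 6 at 48 h (5 higher and 1 lower, 76.9%).

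**Figure D3:**
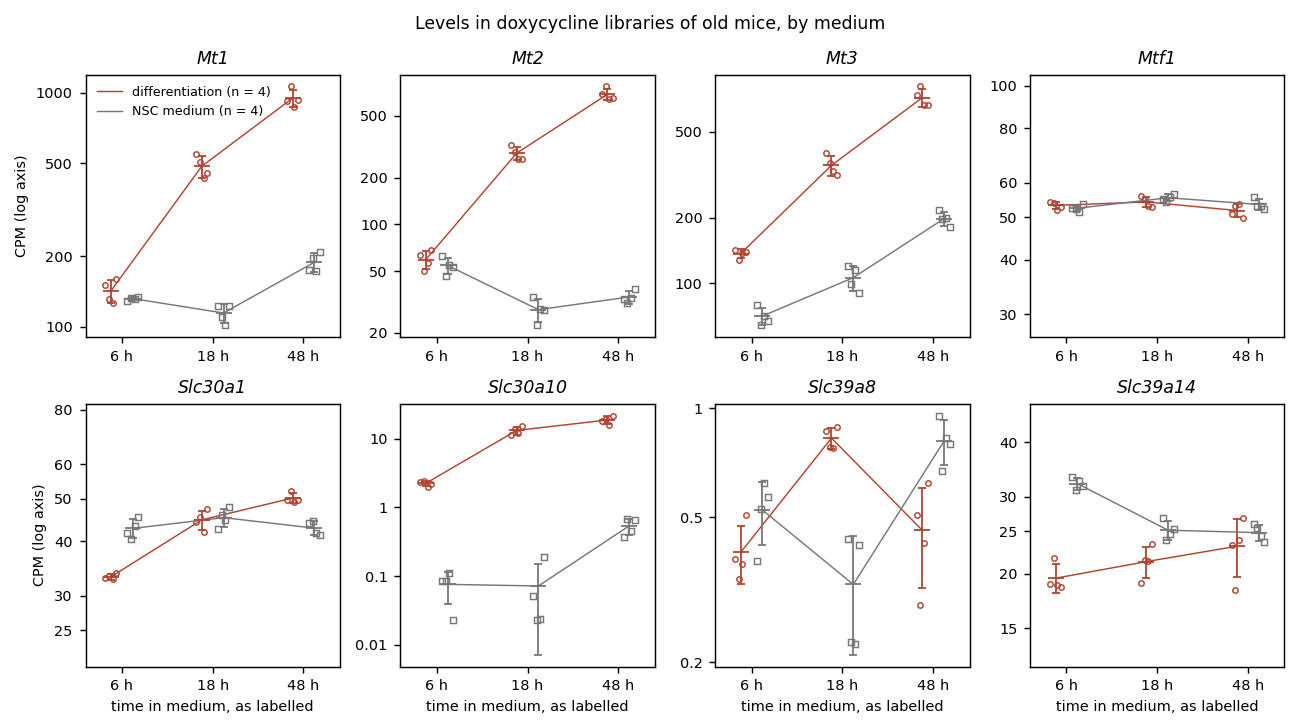
Level of each of the 8 genes (CPM, log axis) in doxycycline-treated old cultures (n = 4 per group) at 6, 18 and 48 h of differentiation (red) and in NSC medium (grey); points are libraries and bars the mean ± SD, with the lower bar clipped where it would come near 0. Mt2 is near 59.3 and 54.4 CPM at 6 h in the 2 media and near 687 and 34.1 CPM at 48 h, and Slc30a10 is separated by medium at every time.

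Several of these genes also differed between sampling times in NSC medium, compared in doxycycline-treated old cultures only. Mt2 at 18 h against 6 h fell to 28.2 ± 4.8 CPM, against 54.4 ± 6.4 (SD, n = 4 each), a log2 change of -0.92 (SE 0.13, adjusted p = 3.8e-04). Slc39a14 fell by 0.33 (SE 0.05, adjusted p = 1.9e-04) and Mt3 rose by 0.61 (SE 0.10, adjusted p = 9.0e-04). Mt1 fell by 0.18 (SE 0.06, adjusted p = 0.0196) and Mtf1 rose by 0.10 (SE 0.03, adjusted p = 0.0179), so 5 of the 7 genes tested were called, with 61.3% of all genes called. Without replicate 3 neither Mt1 (adjusted p = 0.0543) nor Mtf1 (0.106) was called and 3 genes remained over the threshold. Mt1 was also lost without replicate 2 (0.0887) and with all 65 libraries in 1 fit (0.185), and Mtf1 without replicate 4 (0.0584). With blocks Slc30a1 was called too (0.11, SE 0.04, adjusted p = 0.0258, with 67.9% of all genes). Slc39a8 had -0.66 (SE 0.29, adjusted p = 0.0701) and was called without replicate 1 (-0.94, 0.029) and with all 65 libraries in 1 fit (0.038). Slc30a10 was too low to be tested at this step.

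In the later interval in NSC medium, 48 h against 18 h, Mt1 rose by 0.73 (SE 0.08, adjusted p = 8.5e-05), Mt3 by 0.92 (SE 0.10, adjusted p = 9.8e-05), Slc39a8 by 1.32 (SE 0.26, adjusted p = 0.0012) and Slc30a10 by 2.85 (SE 0.51, adjusted p = 6.8e-04). Slc30a10 had 37 to 67 counts per library at 48 h, against 2 to 18 at 18 h. These 4 genes were called, with 52.3% of all genes. Mt2 differed by 0.28 (SE 0.12, adjusted p = 0.09). It was called with blocks (0.29, SE 0.09, adjusted p = 0.0322, with 57.2% of all genes), by DESeq2 (0.03) and without replicate 1 (0.0242). No untreated cultures were sampled in NSC medium at 6 or 48 h, so time and length of exposure to doxycycline cannot be told apart.

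Without animals as blocks, edgeR's test of doxycycline against no treatment at a matched time called none of the 8 genes in 5 comparisons. That fit leaves the pairing by animal unused, and the paired fit follows below. All genes called amounted to 0.018% in old cultures at 18 h in NSC medium, 0.0361% in young cultures at 18 h in NSC medium, and 0.0294%, 0.0118% and 0.0296% in old cultures at 6, 18 and 48 h of differentiation. At an unadjusted p under 0.05 there were 2, 0, 1, 1 and 2 of those tested, against 8.8%, 14.5%, 8.85%, 6.69% and 8.83% of all genes, and DESeq2 called none of the 8. Slc30a10 was too low to be tested in NSC medium. Log2 differences of the genes tested ran from -0.35 to 0.17.

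The libraries of an animal with and without doxycycline can be paired, and with animals as blocks 1 gene was called in each of 3 of the comparisons. Mt3 had 120, 99.2, 114 and 90.3 CPM with doxycycline against 139, 131, 141 and 115 CPM without it in old cultures in NSC medium. It was lower in 4 of 4 animals, although the groups overlapped, and the paired difference was -0.31 (SE 0.03, adjusted p = 2.5e-08), against an adjusted p of 0.479 without blocks. Slc30a10 had 11.3, 13.9, 12.4 and 15.5 CPM with doxycycline and 14.4, 16.2, 14.6 and 18.8 CPM without it at 18 h of differentiation, lower in 4 of 4 animals with overlapping groups (-0.27, SE 0.05, adjusted p = 0.0161, against 0.739 without blocks). Mt2 had 685.5, 771, 639 and 652 CPM with doxycycline and 838, 754.5, 751 and 845 CPM without it at 48 h of differentiation, lower in 3 of 4 animals with overlapping groups (-0.23, SE 0.05, adjusted p = 0.0417, against 0.374 without blocks).

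With blocks, 11.2% of all genes were called in old and 13.6% in young NSC-medium cultures, and 3.67%, 0.883% and 4.15% in old cultures at 6, 18 and 48 h of differentiation. In the same fits 1 of 8 astrocyte markers was higher and 1 lower with doxycycline in young NSC-medium cultures. At 6 h of differentiation in old cultures 1 was higher and 2 were lower. In old NSC-medium cultures 6 were lower, as were 3 at 18 h and 4 at 48 h of differentiation, and none was higher at these 3 points. Summed, these markers averaged 1987 and 2171 CPM, 6098 and 6506 CPM, and 8717 and 9794 CPM with and without doxycycline at those 3 points, while 4 of 8 oligodendrocyte lineage markers were higher at each of the last 2 (6799 and 5809 CPM at 48 h). The part of either list in the 3 gene differences was not tested. Slc30a1 at 6 h of differentiation had 32.7 to 33.8 CPM with doxycycline against 30.6 to 31.8 CPM without it, higher in 4 of 4 animals. It did not pass either edgeR fit (adjusted p = 0.474, and 0.191 with blocks). How many of all genes had groups without overlap was not counted.

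**Figure D4:**
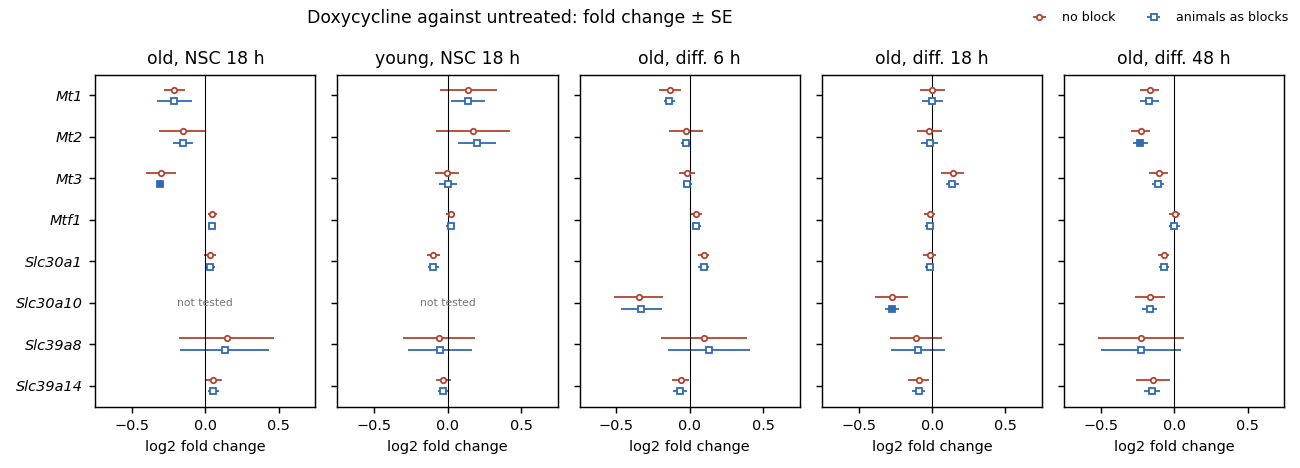
Log2 difference between doxycycline-treated and untreated cultures ± SE for each of the 8 genes in 5 comparisons, without blocks (red circles) and with animals as blocks (blue squares); filled points passed an adjusted p under 0.05, and Slc30a10 was not tested in NSC medium. The 3 filled points are Mt3 in old NSC-medium cultures (-0.31), Slc30a10 at 18 h (-0.27) and Mt2 at 48 h of differentiation (-0.23).

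Between ages the 1 call was Mt3 at 48 h of differentiation. In untreated NSC medium, and at 6 and 18 h of differentiation, none of the 8 genes was called between old and young cultures by edgeR, while 5.95%, 1.43% and 5.19% of all genes were. At an unadjusted p under 0.05 there were 0 of the 7 tested in NSC medium, 0 of 8 at 6 h and 3 of 8 at 18 h (Mt3, Slc30a1 and Slc39a8), against 23%, 13.9% and 21.1% of all genes, and DESeq2 called none of the 8. At 18 h Mt3 had -0.18 (SE 0.07, adjusted p = 0.155), and it was called without old replicate 1 (-0.24, adjusted p = 0.0475). These comparisons and those of doxycycline use the same untreated old libraries.

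At 48 h of differentiation Mt3 was lower in old than in young cultures, with 733 to 811 CPM against 824 to 971 CPM and no overlap. The log2 difference was -0.23 (SE 0.05, adjusted p = 0.0146), and 10.6% of all genes were called. It was not called without old replicate 2 (adjusted p = 0.0513) or 4 (0.0508), or with all 65 libraries in 1 fit (0.0683). Mt1 was lower by 0.23 (SE 0.09, adjusted p = 0.146) in old cultures and Mt2 by 0.17 (SE 0.07, adjusted p = 0.139), and neither passed. With sex as a covariate Mt1 was called (-0.24, SE 0.07, adjusted p = 0.0384) beside Mt3, with 11% of all genes called. In this comparison 3 of 8 astrocyte markers were called lower in old cultures, with summed levels of 9132 to 10550 CPM against 10150 to 11750 CPM, and 4 of 8 NSC markers were lower, at 2973 to 3486 CPM against 3495 to 4801 CPM. Of the neuroblast and neuron markers, 1 of the 7 tested was higher and 4 were lower (median -0.30, all genes 0.00), at summed levels of 1350 to 1430 CPM against 1235 to 1528 CPM. The oligodendrocyte lineage list had 1 gene higher and 1 lower, at 5330 to 6251 CPM against 3833 to 4890 CPM. Their part in the Mt3 difference was not tested.

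Whether a step differed between the ages was tested as an interaction, and none of the 8 genes was called. For the 3 consecutive steps of differentiation 0.0454%, 0% and 0% of all genes were called by edgeR, with 6.73%, 5.45% and 6.92% of them at an unadjusted p under 0.05, and DESeq2 called 17, 1 and 51 genes, none of them among the 8. For Mt2 the old step minus the young step was -0.33 (SE 0.31) at 6 h, 0.17 (SE 0.22) at 18 h and -0.16 (SE 0.13) at 48 h. For Slc30a10 it was 0.89 (SE 0.60), 0.24 (SE 0.25) and -0.22 (SE 0.14). The effect of doxycycline in NSC medium was compared between ages in the same way, with 0% of all genes called, 8.83% at an unadjusted p under 0.05, and 3 genes called by DESeq2. The old minus young difference there was -0.30 (SE 0.14) for Mt3, with an adjusted p of 0.537, and 0.0837 with animals as blocks.

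The other genes of zinc and manganese transport moved in both directions. Of 27 listed, 21 or 22 were tested in a comparison. At 6 h of differentiation against NSC medium, 5 were higher and 14 lower in old cultures (median log2 change -0.19, against 0.02 for all genes) and 5 higher and 13 lower in young cultures (median -0.30, against 0.03). Of all genes tested, 75.5% in old and 74.9% in young cultures were called at this step. Counts of called transporters near such shares do not set the list apart. Slc39a6, a plasma membrane zinc importer, fell by 1.04 (SE 0.05) in old and 0.96 (SE 0.06) in young cultures, and Slc39a10, another, fell by 0.60 (SE 0.04) and 0.70 (SE 0.05). Slc39a7, which releases zinc from the endoplasmic reticulum, fell by 0.88 (SE 0.03) and 0.78 (SE 0.05). Adjusted p of these 6 changes were between 5.0e-10 and 1.2e-07.

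At 18 h against 6 h, 8 were higher and 5 lower in old cultures (median 0.06, all genes 0.01) and 6 higher and 5 lower in young cultures (median -0.05, all genes 0.01). At 48 h against 18 h, 9 were higher and 2 lower in old cultures (median 0.11, all genes 0.00) and 8 higher and 3 lower in young cultures (median 0.10, all genes -0.01). The shares of all genes called were 67.7% in old and 66.5% in young cultures at 18 h against 6 h. At 48 h against 18 h they were 56.5% and 56.9%. Slc39a12, a zinc importer known from brain, had the largest late rise among those named: it averaged 13.5, 8.23, 26.4 and 104 CPM at the 4 stages in untreated old cultures and 13.5, 9.43, 28.3 and 117.5 CPM in untreated young cultures. Its last step was 1.96 (SE 0.08, adjusted p = 3.1e-08) in old and 2.04 (SE 0.08, adjusted p = 4.0e-09) in young cultures. Slc11a2, a divalent metal importer, rose by 0.42 (SE 0.05) and 0.29 (SE 0.05) at that step, and Slc30a9, a mitochondrial zinc exporter, by 0.24 (SE 0.03) and 0.27 (SE 0.03).

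In the 18 h groups, differentiation against NSC medium, 7 were higher and 9 lower in old cultures (median -0.10, all genes 0.03) and 7 higher and 11 lower in young cultures (median -0.23, all genes 0.03). Of all genes, 82% in old and 82.6% in young cultures were called there. In doxycycline-treated old cultures the media differed at 6, 18 and 48 h for 6, 8 and 9 genes higher and 10, 11 and 6 lower (medians -0.23, -0.14 and 0.07, all genes 0.04, 0.02 and 0.03). The shares of all genes called were 80.7%, 81.5% and 76.9%. Doxycycline against no treatment called none of them, and with blocks Slc30a4 and Slc39a11 were higher in old and Slc39a1 in young NSC-medium cultures. With blocks, 11.2% of all genes were called in these old and 13.6% in these young cultures. In NSC medium with doxycycline, 6 were higher and 8 lower at 18 h against 6 h (median 0.02, all genes 0.00), and 3 higher and 7 lower at 48 h against 18 h (median -0.02, all genes 0.01). There 61.3% and 52.3% of all genes were called. Between ages, 1 was higher and 2 lower in NSC medium (Slc30a7 and Atp2c1 lower in old cultures, by 0.15 and 0.12), none with sex as a covariate, 2 were higher at 48 h of differentiation, and none was called at 6 or 18 h. Of all genes, 5.95% were called between ages in NSC medium, and 1.43%, 5.19% and 10.6% at 6, 18 and 48 h of differentiation.

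**Figure D5:**
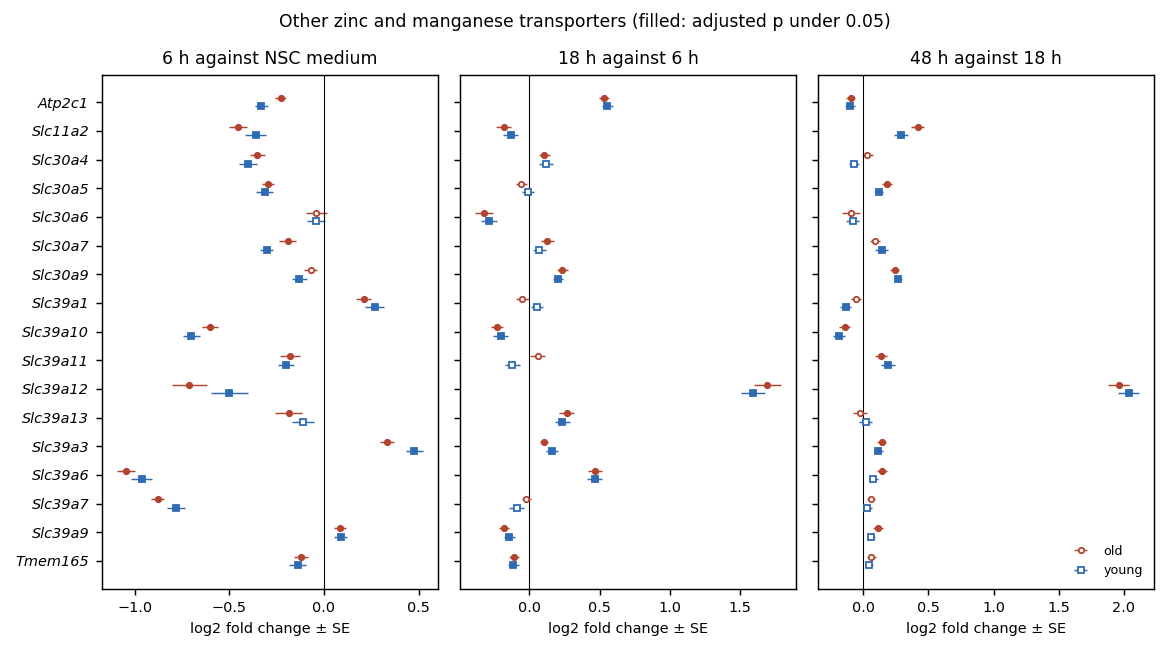
Log2 change ± SE of the 17 other zinc or manganese transport genes that averaged 5 CPM or more, at 3 steps of differentiation in untreated cultures, old above young; filled points passed an adjusted p under 0.05. Slc39a6, Slc39a7 and Slc39a10 lie to the left at 6 h, and Slc39a12 lies far to the right at 48 h (1.96 and 2.04).

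Over the 15 group means, which share animals and stages, the logarithms of Mt1 and Mt2 correlated at r = 0.981, Mt1 and Mt3 at 0.976, Mt2 and Slc30a10 at 0.949, and Mt1 and Mtf1 at -0.310. The genes whose patterns were most like each member, among 11808 that averaged 5 CPM or more, were Nadk2, Gja1 and Arhgap5 for Mt1 (r = 0.995, 0.993 and 0.993), and Agpat3, Cyp7b1 and Tor1aip1 for Mt3 (0.994, 0.992 and 0.991). For Mt2 they were Gm45774, which overlaps it and rounds to 1, Dirc2 and Zfand3 (0.994 each). Slc30a10 was followed most closely by Cpeb3, Nrbp2 and Gm48952 (0.997, 0.997 and 0.996), and Slc30a1 by Cnst, Zfp715 and Rad9b (0.981, 0.980 and 0.967). For Slc39a14 the nearest were Pank3, Uba6 and Urb1 (0.971, 0.970 and 0.966), and for the flat Mtf1 only Gm10532, Sema6a and Rnf145 at 0.856, 0.853 and 0.849. Slc39a8, with a mean under 1 CPM, was not searched. Gja1 is among the astrocyte markers.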

How the data were processed

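Bulk RNA-seq was deposited for 65 libraries of primary NSC cultures. The authors isolated total RNA, made libraries with a stranded mRNA kit and sequenced them as read pairs, per the labels' protocols. The deposited counts are raw whole numbers per gene, made on mm10 with, per the submitters' processing notes, tools that include STAR 2.7.10b, Trim Galore 0.6.6, Subread, SAMtools and DESeq2 1.40.1. The authors also deposited log2 values after a variance-stabilising transformation, used here only as an alternative. How Subread was set to treat strand and overlapping genes is not given in the sources used here. In the count table, 75644 values equal 2 and 19963 equal 1, so many counts come in pairs, and precision is lower than their number alone would give. Libraries held 56.5 to 116.8 M counts.

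Of 31057 features, 30934 were named from GENCODE M21, 119 had no name and 4 were transgene sequences. Comparisons used edgeR 4.0.16 in R 4.3.3 (TMM scaling, filterByExpr at its minimum count of 10, quasi-likelihood fit with the robust option) on the libraries of the groups compared, with Benjamini-Hochberg adjustment over all genes and a threshold of 0.05. Alternatives were DESeq2 size factors, the DESeq2 1.42.0 test, no filter, all 65 libraries in 1 fit, limma 3.58.1 on the deposited log2 values, animals as blocks, sex as a covariate for age, and leaving out each animal. Same-numbered libraries of an age come from the same animal, per the labels. In all 18 comparisons checked, libraries of the same animal deviated together (correlation of deviations from group means at least 0.183), and the median for different animals was at most -0.143. The edgeR test was tried on simulated counts with known changes, without blocks and, except for age, with blocks. This was done for doxycycline in old cultures at 48 h of differentiation and for 18 h against 6 h in young cultures. It was also done for age at 48 h of differentiation and for age by step at 48 h against 18 h. The DESeq2 and limma tests were not tried in this way. Simulated counts had the same dispersion (spread beyond counting noise) for every gene and, without blocks, no differences between animals. They thus differ from these data, and no conclusion about the tests is drawn from them here.

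The 8 genes and all gene and marker lists were chosen with earlier results of these data known. Named list genes are up to 4 called per list and comparison with the largest change and a mean of at least 5 CPM. The 3 genes most like each member were sought on log2(CPM + 0.5) group means for members with a mean of at least 1 CPM. Lists of copper handling, iron handling and glucocorticoid-induced genes were counted in the same way. Promoters are from RefSeq (GRCm38.p6), and 7 of the 8 members matched.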

Additional observations from a re-analysis of the deposited data

Results flagged for a closer look

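Of 100 combinations of a gene and a group examined for a library far from the others of its group, 2 stood apart, and chance alone sets apart about 1 in 20. Mt3 was at 163.1 CPM in replicate 5 of the untreated young cultures at 18 h in NSC medium, where the other 4 libraries had 120.8 to 127 CPM. Slc39a14 was at 21.75 CPM in replicate 2 of the doxycycline-treated old cultures at 6 h of differentiation, where the other 3 had 18.61 to 18.9 CPM.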

How the results depend on the processing

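Fold changes of the 8 genes were recomputed for the 90 pairs of gene and comparison called under any setting. Of 943 recomputed fold changes 893 stayed on their side of the threshold, 30 lost it, 20 gained it and none turned direction. With animals as blocks, 1 of the 8 genes was called for doxycycline in old cultures in NSC medium, 1 at 18 h and 1 at 48 h of differentiation, against 0 in each without blocks. Beside the calls given with the results, the blocks changed no other call. For doxycycline-treated old cultures at 18 h against 6 h in NSC medium, leaving out 1 animal gave 3 to 6 called genes. Between ages it gave 0 to 1 at 18 h and 0 to 1 at 48 h of differentiation. At 48 h, 2 genes were called with sex as a covariate and 0 with all 65 libraries in 1 fit. The cause of these changes was not tested. Counts over all genes moved by over 1.5 times for doxycycline, age and the interactions. For doxycycline (old, then young in NSC medium, then old at 6, 18 and 48 h of differentiation) edgeR called 3, 6, 5, 2 and 5 genes, DESeq2 120, 237, 88, 44 and 90, and edgeR with blocks 1863, 2260, 625, 150 and 701. Without the filter 6, 10, 10 and 5 were called in the first 4. All 65 libraries in 1 fit gave 11 and 260 in NSC medium and 6 and 2 at 18 and 48 h, and the variance-stabilised values 8 and 4 at 6 and 18 h. Leaving out 1 animal gave 0 to 1, 4 to 789, 1 to 7, 0 to 16 (16 without replicate 4) and 1 to 5, with 789 of the second reached without young replicate 5. For age (NSC medium, then 6, 18 and 48 h) edgeR called 994, 246, 880 and 1815, DESeq2 2008, 732, 1590 and 2747, and leaving out 1 animal gave 405 to 1544, 72 to 320, 290 to 1383 and 572 to 2461. All 65 libraries in 1 fit gave 1663 and 664 for the first pair. For the doxycycline by age interaction 589 genes were called with blocks and 75 without young replicate 5, against 0. For age by step (6, 18 and 48 h) 29, 2 and 59 were called with blocks and 0 to 9, 0 to 1 and 0 to 1 without 1 animal, against 8, 0 and 0. DESeq2 called 3 genes for doxycycline by age and 17, 1 and 51 for age by step. Age by step gave 1 and 2 genes at 18 and 48 h without the filter, and 7 at 48 h with all 65 libraries in 1 fit. Slc39a8 and, in NSC medium, Slc30a10 rest on few counts, so small differences in them were not detectable at this depth.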

Other observations

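Lists for other metals were counted at the same stages in untreated cultures, where 75.5%, 67.7% and 56.5% of all genes were called in the 3 steps in old and 74.9%, 66.5% and 56.9% in young cultures. Counts of called list genes near these shares do not set a list apart. Of 15 copper handling genes, 7 were higher and 6 lower at 6 h of differentiation than in NSC medium in old cultures, and 7 and 5 in young cultures. Slc31a2, an intracellular copper transporter, rose by 1.08 (SE 0.09) in old and 0.66 (SE 0.08) in young cultures, while Sco1 and Sco2, which deliver copper to cytochrome oxidase, fell by 0.83 (SE 0.06) and 0.83 (SE 0.05) in old and by 0.77 (SE 0.06) and 0.85 (SE 0.05) in young cultures. In the step to 18 h, 3 were higher and 5 lower at both ages. In the step from 18 h to 48 h, 7 were higher and 2 lower in old and 6 higher and 1 lower in young cultures, led by the copper exporter Atp7b, which averaged 17.7 CPM at 48 h against 7.30 at 18 h in old cultures (1.26, SE 0.12) and 17.1 against 8.29 CPM in young cultures (1.03, SE 0.14). All of these passed edgeR's quasi-likelihood test with Benjamini-Hochberg adjustment over all genes.

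Of 14 iron handling genes, 5 were higher and 8 lower at 6 h than in NSC medium in old cultures, and 5 and 7 in young cultures. Tfrc, the transferrin receptor, averaged 184, 82.0, 39.4 and 87.4 CPM in NSC medium and at 6, 18 and 48 h of differentiation in old cultures and 199, 95.5, 38.8 and 70.1 CPM in young cultures. It was the iron gene called between ages at 48 h with the larger difference (0.32 higher in old, SE 0.05, adjusted p = 0.0041 in edgeR), beside Slc25a37, a mitochondrial iron importer (0.28, SE 0.06, adjusted p = 0.0134). In the step to 18 h, 6 iron genes were higher and 4 lower in old and 6 and 2 in young cultures. In the step to 48 h, 7 were higher and 2 lower at both ages.

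Of 15 genes known to be induced by glucocorticoids, 9 were higher and 5 lower at 6 h than in NSC medium in old cultures and 9 and 4 in young cultures. Between 18 h and 6 h, 9 were higher and 4 lower in old and 8 and 3 in young cultures, and at 48 h against 18 h, 6 and 5 in old and 6 and 7 in young cultures. Klf15, a transcription factor, rose by 2.57 (SE 0.14) in old and 2.83 (SE 0.11) in young cultures at 6 h, and Fkbp5, a co-chaperone of the receptor, fell by 1.63 (SE 0.05) and 1.54 (SE 0.06). At 18 h of differentiation against NSC medium the list's median change was 0.69 in old and 0.89 in young cultures, against 0.03 for all genes, which is given as a description. Cdkn1c, a cell cycle inhibitor in this list, averaged 19.3, 11.3 and 9.15 CPM at 6, 18 and 48 h of differentiation in old cultures, against 8.11, 5.53 and 4.50 CPM in young cultures, with log2 differences of 1.25 (SE 0.20), 1.04 (SE 0.16) and 1.03 (SE 0.17). Their adjusted p in edgeR's test were 0.0212, 0.0071 and 0.0066.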
